A study of Mus musculus with 4 samples.

Results

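Uroplakins are the membrane proteins of the bladder lining. Their transcripts were followed here in GC-2 and GC-1, mouse testis lines that the labels call germ cell lines. The genes Upk1a, Upk1b, Upk2, Upk3a and Upk3b, 5 of the 24813 reference genes with a probe, were read by 6 of 56605 probes, found by the gene name in the scanner files. The group was chosen by the line difference itself, since Upk1b and Upk3b were known to be far higher in GC-1. The line differences of these 5 genes are therefore a description, with no test.

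In urothelium, the stratified lining of the bladder and ureters, uroplakins pack into rigid plaques on the surface of the umbrella cells. Upk1a and Upk1b are tetraspanins, proteins with several passes through the membrane. Upk1a pairs with Upk2, and Upk1b pairs with Upk3a or Upk3b, before leaving the endoplasmic reticulum. Upk3b is also a known marker of mesothelium, the lining of the body cavities and of the testis surface, and Upk1b is found there too.

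GC-2 (n = 2 arrays) was compared with GC-1 (n = 2 arrays). GC-2(spd)ts is known as a line of spermatocyte origin carrying SV40 large T antigen and a p53 form sensitive to temperature, and GC-1(spg) as a line of spermatogonial origin carrying SV40 large T antigen. Both were grown untreated in DMEM with serum and antibiotics and taken shortly before confluence. No animal age or strain is given in the labels. Nothing in the labels ties the arrays of a line to separate cultures, so the p-values may rest on technical spread alone. In bulk RNA, fewer cells with a transcript and less of it per cell cannot be told apart.

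Slide row cannot be told apart from line, because the 4 arrays shared 1 slide with 1 row for each line. The brightness at the 75th percentile was 416 and 199.9 for GC-2, against 666 and 693 for GC-1. The scanner software marks spots that are well above background, and the lowest signal so marked was 8.67 and 7.72 for GC-2, against 9.11 and 11.45 for GC-1. After scaling to the 75th percentile, the E1A spike-in probes were higher in GC-2 by 2.07 ± 0.46 log2 (SD over 8 probes, all 8 higher), so scaling to these probes lowers each difference by that amount, and calls of a rise are given with their direction under it where that differs. The germ cell label was set against 12 marker genes, of which 6 were tested. In GC-2, 1 was higher and 1 lower, or 16.7% each, beside 18.3% and 25.7% of all tested genes. The lower gene was Uchl1, for which another probe passed in the opposite direction. Dazl, Kit and Dmc1 were above background on no array.

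Each probe is 60 bases long, and its last 30 bases are shown 5′ to 3′ because they fix which stretch of the transcript was read. Capitals mark AATAAA, the signal that precedes a poly(A) tail, from which the oligo-dT primer started. Positions are on mm9, as the scanner files give them.
Upk1a, chr7:31388111-31388170, minus strand: gttggctggacacccAATAAAtactggctg
Upk1b, brighter probe, chr16:38773592-38773651, minus strand: tcacacttttggatgcttttagtctccagt
Upk1b, dimmer probe, chr16:38773859-38773918, minus strand: gacgactctcattcctgtctatgtttaatg
Upk2, chr9:44260822-44260881, minus strand: ctcttaactgtacttaattctcacAATAAA
Upk3a, chr15:84851819-84852720, plus strand: aaatgacacacgactcacagatcacccagg
Upk3b, chr5:136520522-136520581, plus strand: tggctattaatgacagtcggctacctagcc

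The Upk3a probe spans 902 genomic bases with its 60 and so joins separate genomic stretches, while each of the others lies in 1 unbroken stretch. AATAAA was found in the Upk1a and Upk2 probes and in none of the other 4. On the scanner files' transcript coordinates the dimmer Upk1b probe starts at base 1147 and the brighter one at base 1414.

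The tetraspanin Upk1b was bright in GC-1 and near the detection limit in GC-2. Its brighter probe had processed signals of 16.0 and 8.47 in GC-2, against 46977 and 80937 in GC-1. All 4 values were well above background, although GC-2 replicate 2 lay just over the lowest marked signal of its array, and the lines did not overlap. Relative to each array's 75th percentile, the log2 level was -4.63 ± 0.10 in GC-2 and 6.50 ± 0.51 in GC-1 (SD, n = 2 each). The difference of -11.13 ± 0.32 log2 (SE) made Upk1b 2248-fold lower in GC-2. With so dim a GC-2 signal that size depends on the processing, and it was -8.56 log2 with normexp background correction and -13.20 log2 under spike-in scaling.

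The dimmer Upk1b probe had signals of 5.32 and 2.58 in GC-2, neither well above background, against 34578 and 43876 in GC-1. The probe thus has only a limit in GC-2, and by this processing its level was higher in GC-1 by at least 2021-fold. With normexp even the brighter probe stood at -8.56 log2, a smaller size than this limit. Such limits set the GC-1 mean against the lowest marked signal of each GC-2 array, or against the probe's own signal where that is higher. Again the lines did not overlap.

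Upk3b, which can partner Upk1b, was read by 1 probe. It had signals of 4.44 and 1.59 in GC-2, neither well above background, against 17168 and 19936 in GC-1. The GC-1 values differed by 1.16-fold, and both lay far above either GC-2 value. Their log2 level was -6.76 ± 0.30 in GC-2 and 4.77 ± 0.11 in GC-1 (SD, n = 2 each). By the same kind of limit, GC-1 held Upk3b at a level at least 960.0-fold higher. That limit was 705-fold without GC-2 replicate 1 and 1307-fold without GC-2 replicate 2. With normexp the fitted difference itself was -6.96 log2, a smaller size than the limit.

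Upk1a, the other tetraspanin and the uroplakin that the FimH adhesin of uropathogenic bacteria binds, was measured in both lines. Its signals were 76.3 and 32.7 in GC-2, against 1061 and 788 in GC-1. All 4 values were well above background and the lines did not overlap. The log2 level was -2.53 ± 0.12 in GC-2 and 0.43 ± 0.34 in GC-1 (SD, n = 2 each). The difference of -2.96 ± 0.27 log2 (SE) made Upk1a 7.76-fold lower in GC-2. It was -2.05 log2 with normexp and -5.02 log2 under spike-in scaling.

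Upk2, the partner of Upk1a, was above background on no array, with signals of 2.53 and 3.37 in GC-2 and of 2.58 and 4.05 in GC-1. Upk3a, the partner of Upk1b in bladder plaques, had signals of 4.51 and 1.58 in GC-2 and of 2.15 and 2.40 in GC-1, also on no array above background. Neither gene has a fold change, since both lines lie under the limit. The uroplakins detected in GC-1 therefore hold both partners of the pair of Upk1b and Upk3b, and 1 partner each of the pairs with Upk2 and Upk3a. In GC-2, Upk1a and, by its brighter probe, Upk1b were detected.

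Set against all 24813 genes with a probe, 62.5% were measured on both GC-2 arrays and 68.5% on both GC-1 arrays. Within the 68.5%, genes above background on no GC-2 array, as Upk3b was, made up 4.21% of all genes. A share of 25.2% was above background nowhere, as Upk2 and Upk3a were.

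**Figure D1:**
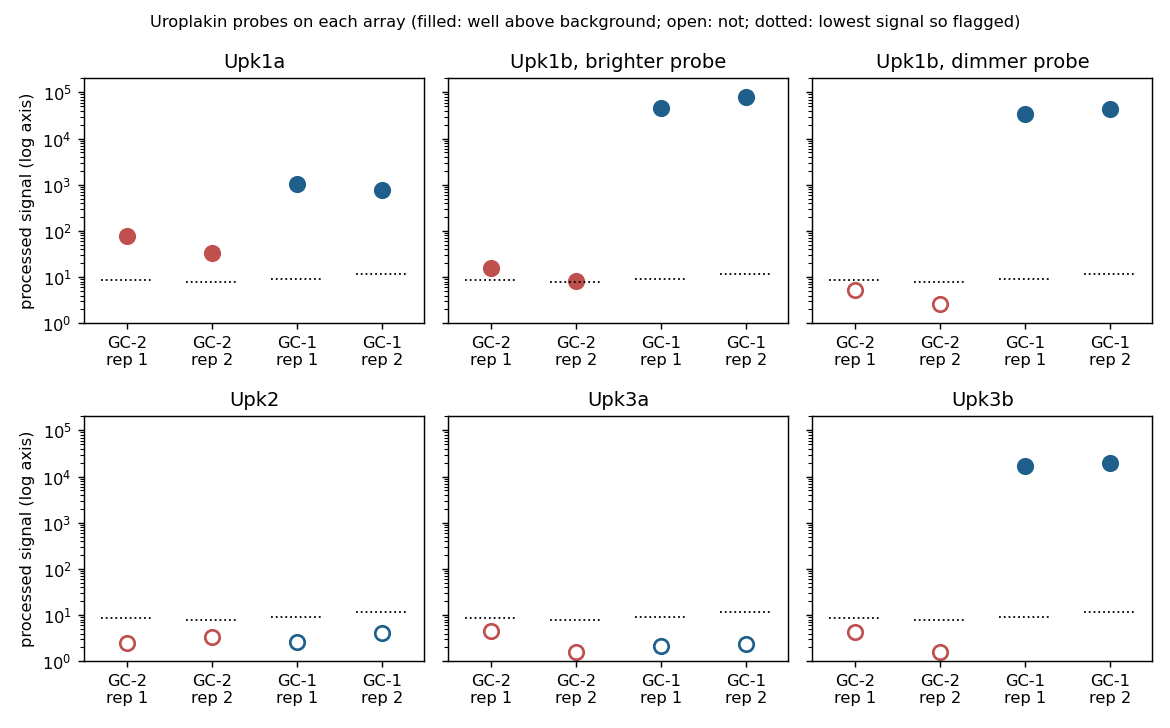
Processed signal (log axis, scanner units) of the 6 uroplakin probes on the 2 GC-2 and 2 GC-1 arrays, 1 point per array. Filled points were well above background, open points were not, and dotted lines mark the lowest signal so marked on each array. Both Upk1b probes and Upk3b reach 17168 or more in GC-1, Upk1a is filled on all 4 arrays, and Upk2 and Upk3a are open on all 4.

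For background, 16780 of 36692 tested probes, or 45.7%, differed between the lines at an adjusted p under 0.05, 24.1% being higher and 21.6% lower in GC-2 (limma, Benjamini-Hochberg). Of the 6 uroplakin probes, 4 passed the filter, which asks for detection on both arrays of at least 1 line. A difference of -10 log2 or lower, a size picked after the values were seen, was found for 19 tested probes, or 0.0518%, and 3 of these read Upk1b or Upk3b. The members were chosen for this contrast, so nothing is read from these shares. Among genes, 44.1% of 17437 passed, 3192 (18.3%) higher and 4490 (25.7%) lower in GC-2, which became 644 higher and 15156 lower under spike-in scaling.

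Upk3bl, a uroplakin-like gene next to Upk3b, was not among the genes chosen. Its brighter probe, at chr5:136540130-136540189 on mm9, had signals of 27.2 and 11.2 in GC-2, against 659 and 653 in GC-1. The other probe had 29.1 and 15.4 in GC-2, against 246 and 357 in GC-1. All 8 values were well above background, and for both probes each GC-2 value lay below each GC-1 value. The differences were -3.998 ± 0.24 log2 for the brighter probe and -2.57 ± 0.27 log2 for the other (SE, n = 2 each; limma, adjusted p = 0.00031 and 0.00156). With normexp the brighter probe stood at -2.09 log2.

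The genes beside each uroplakin gene were then examined, 3 named protein-coding genes on each side in the GRCm38 order. Of 30 such genes 24 were tested, and 8 were lower and 5 higher in GC-2, or 33.3% and 20.8%, beside 25.7% and 18.3% of all genes. Their median difference was -0.23 log2, against -0.13 log2 for all genes. Without GC-1 replicate 1 these counts were 5 lower and 2 higher, and without GC-2 replicate 2 also 5 lower and 2 higher. Calls among all genes were fewer as well with 1 array left out, at 2704 to 3432 lower and 1941 to 2544 higher.

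Next to Upk1b, the galactosyltransferase gene B4galt4 had signals of 204 and 125 in GC-2, against 7812 and 8310 in GC-1. It was lower in GC-2 on every array, by a difference of -4.42 ± 0.25 log2 (SE; limma, adjusted p = 0.000278). Lsamp, which encodes a neuronal adhesion protein, is the third gene on the other side, past Tex55, above background on no array, and Igsf11, which was not tested. Its brighter probe fell by 3.67 ± 0.26 log2 (adjusted p = 0.00049), while its other tested probe stood at 0.33 ± 0.28 log2 and did not pass. Lsamp was at -1.67 log2 by the mean of both and at -1.72 log2 in the authors' log2 table. Tmem39a and Arhgap31, beyond B4galt4, stood at -0.37 ± 0.24 and -0.03 ± 0.37 log2 and did not pass, although another Arhgap31 probe passed at -1.59 ± 0.47 log2 (adjusted p = 0.0405).

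Around Upk3b the calls went both ways. On the side away from Upk3bl, the ubiquitin ligase gene Dtx2 fell by 1.39 ± 0.24 log2 (SE; limma, adjusted p = 0.00709; -0.82 log2 and 0.112 in the authors' log2 table), and the egg coat gene Zp3, above background on 1 of 2 GC-2 arrays, fell by 1.90 ± 0.58 log2 (adjusted p = 0.0437). Past Upk3bl, the Ras regulator gene Rasa4 rose by 2.86 ± 0.24 log2 (adjusted p = 0.000775), but was at 0.80 log2 and did not pass under spike-in scaling (adjusted p = 0.0579). The scavenger receptor gene Ssc4d and the RNA polymerase II subunit gene Polr2j were higher by 1.34 ± 0.32 and 0.95 ± 0.23 log2 (adjusted p = 0.0207 and 0.0214). Under spike-in scaling Ssc4d and Polr2j were lower in GC-2, and with normexp Zp3 was higher. Polr2j did not pass with any array left out (adjusted p = 0.0586 to 0.0885), and Ssc4d and Zp3 did not without GC-1 replicate 1, GC-1 replicate 2 or GC-2 replicate 2 (adjusted p = 0.0736 to 0.108 for Ssc4d and 0.0626 to 0.176 for Zp3).

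Near Upk1a, the repressor gene Zbtb32 fell by 1.89 ± 0.45 log2 and the cytochrome oxidase subunit gene Cox6b1 rose by 1.496 ± 0.25 log2 (SE; limma, adjusted p = 0.0201 and 0.00649). Zbtb32 did not pass without GC-1 replicate 1 or GC-2 replicate 2 (adjusted p = 0.0769 and 0.0836), nor with normexp (adjusted p = 0.419). Near Upk3a, Arhgap8 fell by 3.06 ± 0.29 log2 (adjusted p = 0.00112), and stood at -2.27 log2 by the mean of its probes. Fam118a fell by 0.84 ± 0.23 log2 (adjusted p = 0.0309), did not pass with any array left out (adjusted p = 0.0738 to 0.121) and was higher in GC-2 in the authors' log2 table. Near Upk2, the RNA helicase gene Ddx6 rose by 1.29 ± 0.25 log2 (adjusted p = 0.011), but did not pass without GC-1 replicate 1 or GC-2 replicate 2 (adjusted p = 0.0607 and 0.0532). Cox6b1 and Ddx6 were lower in GC-2 under spike-in scaling.

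**Figure D2:**
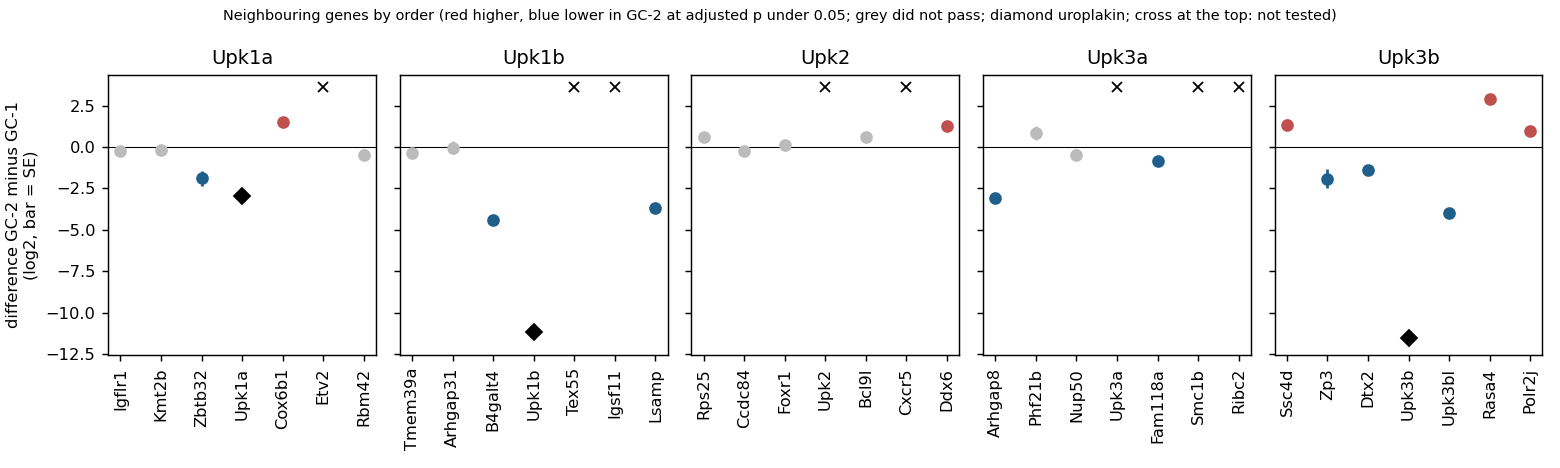
Difference between the lines (GC-2 minus GC-1, log2, bars give the SE, n = 2 arrays per line) of each tested uroplakin gene (diamond) and of the 3 named genes on each side of it, in genome order and not to scale. Crosses at the top mark genes that were not tested. B4galt4 lies at -4.42 next to Upk1b, Lsamp at -3.67 is the third gene on its other side, and Rasa4 lies at 2.86 near Upk3b, or at 0.80 under spike-in scaling.

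RefSeq promoters on GRCm38.p6 are shown because the genes differ in detection: Upk3b in GC-1 alone, Upk1a in both lines and Upk3a in neither. The promoter set held no window for Upk1b or Upk2. The 250 bases before the start are printed 5′ to 3′. Capitals mark matches, on either strand, to motifs known for factors that act in urothelium or at promoters in general. Grainyhead-like factors were searched as AACCGGTT and as the wider AACNNGTT, which contains it. The GATA factors, such as Gata3, were searched as AGATAA in every promoter window. The nuclear receptors, such as Pparg and Rxra, were searched by the letters AGGTCA. The TEAD factors, which act downstream of Hippo signalling, were searched as GGAATG. The GC box, which Sp factors are known to bind, was searched as GGGCGG. The TATA box, found near the start of some genes, was searched as TATAAA.
Upk3b, chr5:136038246-136038495, plus strand: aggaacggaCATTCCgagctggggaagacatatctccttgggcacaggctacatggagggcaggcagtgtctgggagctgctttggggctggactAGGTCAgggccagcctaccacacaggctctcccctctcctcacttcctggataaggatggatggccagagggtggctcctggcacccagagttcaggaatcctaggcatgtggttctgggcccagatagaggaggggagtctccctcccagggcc
Upk1a, chr7:30612735-30612984, minus strand: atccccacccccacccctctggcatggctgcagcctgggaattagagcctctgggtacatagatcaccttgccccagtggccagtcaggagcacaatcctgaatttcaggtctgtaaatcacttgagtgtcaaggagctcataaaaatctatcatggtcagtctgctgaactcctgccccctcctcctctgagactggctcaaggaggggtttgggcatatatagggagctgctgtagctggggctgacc
Upk3a, chr15:85016891-85017140, plus strand: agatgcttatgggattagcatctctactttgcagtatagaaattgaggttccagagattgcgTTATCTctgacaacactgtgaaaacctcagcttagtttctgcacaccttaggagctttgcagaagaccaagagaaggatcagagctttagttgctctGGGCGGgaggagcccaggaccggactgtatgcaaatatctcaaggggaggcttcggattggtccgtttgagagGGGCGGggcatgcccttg

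The Upk3b window held the nuclear receptor letters 155 bases before the start and the TEAD letters, on the opposite strand, 241 bases before it. The Upk3a window held the GATA letters on the opposite strand and the GC box at 2 places. None of the motifs was found in the Upk1a window. The Upk3bl window, searched as well and not printed, held the wider grainyhead-like motif 9 bases before the start. Of 32851 RefSeq promoters of the same length, 14% held the nuclear receptor letters, 12.6% the TEAD letters, 9.99% the GATA letters, 32.7% the GC box, 12.4% the TATA box, 3.64% the wider grainyhead-like motif and 0.116% the narrower one. Each match describes letters in the window and is not shown to be a binding site.

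Transcription factors known to drive urothelial differentiation went both ways. Of 12 genes 8 were tested, and 3 were lower and 3 higher in GC-2. These were 37.5% each, beside 25.7% lower and 18.3% higher among all genes. Foxa1, Elf3, Ehf and Ovol1 were above background on no array. The median difference was 0.29 log2, and -0.02 log2 with median scaling and -1.77 log2 under spike-in scaling. Gata3, a zinc finger factor of urothelium, had signals of 795 and 299.8 in GC-2, against 4224 and 5553 in GC-1, and fell by 2.07 ± 0.27 log2 (SE; limma, adjusted p = 0.00291).

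Grhl2 and Grhl3, grainyhead-like factors of which Grhl3 acts in umbrella cells, were detected in GC-1 alone. They entered the test through GC-1, so their GC-2 values are undetected ones. The filter thus favoured a lower value in GC-2, as for the other genes given below with a limit, and nothing is read from the direction. Grhl2 had signals of 1.75 and 4.79 in GC-2, against 167 and 122 in GC-1, at least 7.40-fold higher in GC-1 (limma, adjusted p = 0.00873). Grhl3 had 5.63 and 1.57 in GC-2, against 94.9 and 98.7 in GC-1, at least 5.02-fold higher in GC-1 (adjusted p = 0.000864). These limits depend on the processing, since the normexp differences were -0.61 log2 for Grhl2 and -0.16 log2 for Grhl3, smaller sizes than either limit. With normexp neither passed (adjusted p = 0.21 and 0.733), and Grhl2 did not pass without GC-1 replicate 1 or 2 (adjusted p = 0.0736 and 0.0543).

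Pparg, the nuclear receptor that turns on urothelial genes together with Rxra, had signals of 305 and 277 in GC-2, against 79.6 and 112 in GC-1. It rose by 2.86 ± 0.38 log2 (SE; limma, adjusted p = 0.00317), by 2.24 log2 with normexp and by 0.79 log2 under spike-in scaling (adjusted p = 0.0609). Rxra and the retinoic acid receptor gene Rarg, named after their values were seen, were higher by 0.95 ± 0.23 and 1.25 ± 0.26 log2 (adjusted p = 0.0211 and 0.0132), and lower under spike-in scaling. Rxra did not pass with any array left out (adjusted p = 0.0561 to 0.089), nor Rarg without GC-1 replicate 1 or GC-2 replicate 1 (adjusted p = 0.0648 and 0.0539).

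Keratins of the urothelial layers were lower in GC-2 for 7 of 10 tested genes and higher for 1. These were 70% and 10%, beside 25.7% and 18.3% of all genes. Krt7, Krt8, Krt15 and Krt20, among the 7, were detected on no GC-2 array, so the filter favoured their direction. For Krt7 the limit was only 1.03-fold. Krt18, a keratin of simple epithelia, had signals of 38.1 and 16.3 in GC-2, against 154883 and 188691 in GC-1, and fell by 11.51 ± 0.24 log2 (SE; limma, adjusted p = 9.06e-05). The basal keratin Krt14 fell by 10.20 ± 0.24 log2 and the simple keratin Krt19 fell by 7.68 ± 0.30 log2 (adjusted p = 9.06e-05 and 0.000155). Krt8, the partner of Krt18, had a limit of at least 49.5-fold higher in GC-1 (adjusted p = 0.00181). With normexp the differences were -9.84 log2 for Krt18, -9.39 log2 for Krt14 and -2.91 log2 for Krt8, the last a smaller size than its limit.

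Krt20, the keratin of umbrella cells and named after its value was seen, had signals of 1.81 and 1.58 in GC-2, neither well above background, against 28.7 and 33.8 in GC-1. Its limit was 1.61-fold, and with normexp it was higher in GC-2 by 0.53 log2 and did not pass (limma, adjusted p = 0.258). Krt13, also named after its value was seen, was higher by 1.22 ± 0.23 log2 (SE; limma, adjusted p = 0.0092) and lower under spike-in scaling. The median of the list was -3.44 log2, or -1.78 log2 with the 4 keratins that GC-2 arrays did not detect put at their limits. With normexp 4 of 10 were lower, beside 3457 of 17437 among all genes.

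Genes of uroplakin vesicle trafficking went both ways. Of 10 genes 8 were tested, 5 were lower and 2 higher in GC-2, with a median of -0.92 log2. The shares were 62.5% and 25%, beside 25.7% and 18.3% of all genes. Mal, a lipid raft protein, and Snx31, a sorting nexin of umbrella cells, were above background on no array. Rab27b, the small GTPase of uroplakin vesicles, had signals of 92.3 and 41.7 in GC-2, against 558 and 672 in GC-1, and fell by 2.07 ± 0.23 log2 (SE; limma, adjusted p = 0.00194; -1.36 log2 with normexp). The motor gene Myo5b fell by 1.56 ± 0.42 log2, while the Rab27 effector gene Sytl2 rose by 1.40 ± 0.39 log2 and the SNARE gene Vamp8 rose by 1.06 ± 0.23 log2 (adjusted p = 0.0302, 0.0321 and 0.0141).

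These last 3 calls were lost with fewer arrays. Without GC-1 replicate 1 or 2 the differences were -1.58 and -1.55 log2 for Myo5b, 1.08 and 1.72 log2 for Sytl2 and 1.07 and 1.06 log2 for Vamp8. Without GC-1 replicate 1 the adjusted p was 0.129 for Myo5b, 0.157 for Sytl2 and 0.0593 for Vamp8, and without GC-1 replicate 2 it was 0.128, 0.0608 and 0.0564. Without GC-2 replicate 1 Sytl2 and Vamp8 did not pass (adjusted p = 0.11 and 0.0569), nor did Myo5b without GC-2 replicate 2 (0.07). Leaving out 1 array left 1 to 2 of the 8 genes lower and 0 to 2 higher. Sytl2 and Vamp8 were lower in GC-2 under spike-in scaling, and Myo5b did not pass with normexp (-0.59 log2, limma, adjusted p = 0.137). Nor did Myo5b pass by the mean of its tested probes (-0.77 log2, adjusted p = 0.107) or in the authors' log2 table (-0.53 log2, adjusted p = 0.213).

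Among genes known from mesothelium, 9 of 11 tested were lower in GC-2 and 1 was higher. These were 81.8% and 9.09%, beside 25.7% and 18.3% of all genes. Gpm6a, Rspo1 and Krt8, among the 9, were detected on no GC-2 array, so the filter favoured their direction. The list median was -6.46 log2, or -6.29 log2 with these 3 genes put at their limits. The membrane glycoprotein gene Gpm6a had signals of 2.14 and 1.57 in GC-2, against 2405 and 3684 in GC-1, at least 154-fold higher in GC-1 (limma, adjusted p = 0.000141). Rspo1, a secreted Wnt agonist, had a limit of at least 83.9-fold higher in GC-1 (adjusted p = 0.00022). Krt8, Krt18 and Krt19, given above, belong to this list as well. With normexp Gpm6a stood at -4.52 log2 and Rspo1 at -3.56 log2, both smaller sizes than their limits, and the median of the list was -3.56 log2. Msln, which encodes mesothelin and was named after its value was seen, had signals of 658 and 321 in GC-2, against 179087 and 167270 in GC-1, and fell by 7.32 ± 0.23 log2 (SE; adjusted p = 0.000118).

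The retinoid enzyme gene Aldh1a2, also named after its value was seen, was higher by 1.92 ± 0.34 log2 (SE; limma, adjusted p = 0.00777). It was lower under spike-in scaling and did not pass without GC-1 replicate 1 (adjusted p = 0.0591). The mesothelial markers Lrrn4 and Calb2 were above background on no array, and 13 of 14 listed genes had a probe. The summed signal of the tested genes was 922 to 2201 in GC-2, against 513053 to 573077 in GC-1. The part of a mesothelial cell type or state in the uroplakin values was not tested.

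Markers of other testis cells differed as well. Their counts stand beside 25.7% lower and 18.3% higher among all genes. Of 8 tested Sertoli cell genes 5 were lower and 2 higher in GC-2, and Amh and Cldn11 were above background on no array. Their sums were 8188 to 29581 in GC-2, against 230680 to 271031 in GC-1. Most of the GC-1 sums came from Clu, with 140357 and 176675, and Trf, with 87661 and 89508. Fshr and Gata1, among the 5, were detected on no GC-2 array, so the filter favoured their direction. For Fshr the limit was 0.77-fold, which does not place GC-1 higher. The 2 higher genes were Gata4 and Rhox5, of which Rhox5, at 1.90 log2, was lower under spike-in scaling. Of 4 tested Leydig cell genes 1 was lower and 3 higher, with sums of 2923 to 5230 in GC-2, against 253 to 289 in GC-1. Hsd3b1 and Lhcgr were above background on no array. The lower gene, Cyp11a1, was detected on no GC-2 array, and its limit of 0.56-fold does not place GC-1 higher. Of 5 tested macrophage genes 1 was lower and 2 higher, and Adgre1 was above background on no array. Their sums were 3164 to 6546 in GC-2, against 16104 to 23329 in GC-1. The lower gene, Cd68, gave 7978 and 15209 of these GC-1 sums. Csf1r and Itgam (1.36 log2, but lower under spike-in scaling) were higher in GC-2, while Ptprc and Cd14 did not pass. Like the other sums, these add processed signals that were not scaled between arrays, so they do not show a general macrophage excess in GC-1. The germ cell sums were 891 to 1812 in GC-2, against 7411 to 15530 in GC-1, of which 1 probe of Uchl1, a ubiquitin hydrolase gene, made up 640 and 1474 in GC-2, against 7239 and 15345 in GC-1. Another Uchl1 probe, detected in GC-2 alone, passed in the opposite direction at 1.53 ± 0.42 log2 (SE), but was lower in GC-2 under spike-in scaling. Their part in the uroplakin values was not tested.

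Upk1a and Upk1b belong to the tetraspanin family, whose other members went both ways. Of 29 other tetraspanin genes 26 were tested, and 8 were lower and 6 higher in GC-2, with a median of -0.40 log2. The shares were 30.8% and 23.1%, beside 25.7% and 18.3% of all genes. Without GC-1 replicate 1, 5 were lower. Tspan8, an epithelial tetraspanin, had signals of 1.77 and 2.08 in GC-2, against 3069 and 5502 in GC-1, at least 213-fold higher in GC-1 (limma, adjusted p = 0.000231). With normexp Tspan8 stood at -4.99 log2, a smaller size than its limit. Tspan7 fell by 3.38 ± 0.48 log2 (SE; adjusted p = 0.00384). In the other direction Tspan11 had signals of 261 and 179 in GC-2, against 20.5 and 17.6 in GC-1, and rose by 4.74 ± 0.28 log2 (adjusted p = 0.000323; 2.83 log2 with normexp). Tspan13 rose by 3.57 ± 0.46 log2 (adjusted p = 0.00296).

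**Figure D3:**
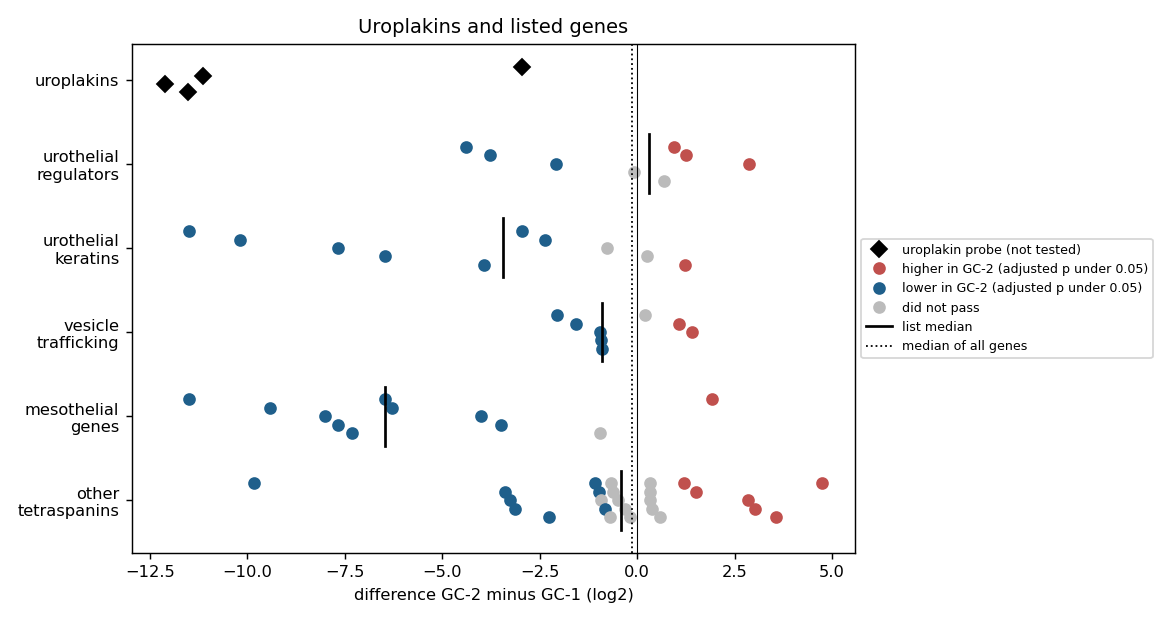
Difference between the lines (GC-2 minus GC-1, log2) of the 4 uroplakin probes that passed the filter (black diamonds, no test) and of the tested genes of 5 lists, 1 point per gene, coloured by call. Short bars give each list's median, -6.46 for the mesothelial genes and 0.29 for the urothelial regulators, and the dotted line marks -0.13, the median of all genes.

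Genes with the profile most like Upk1b and Upk3b were found by the Euclidean distance between log2 profiles over the 4 arrays, each centred on its own mean. For the brighter probe of Upk1b, over 13447 genes detected on all 4 arrays, they were Krt18 at a distance of 0.56 log2, the transferrin gene Trf at 0.58, Krt14 at 1.05, the envoplakin gene Evpl at 1.98 and the retinol carrier gene Rbp4 at 2.10. Trf, for example, had signals of 22.3 and 11.2 in GC-2, against 89508 and 87661 in GC-1. For Upk3b, over 792 genes detected on both GC-1 arrays alone, they were Prr15l at 0.61, the growth factor gene Fgf5 at 0.94, the kinase genes Ripk4 and Dapk2 at 1.03 and 1.06, and Vat1l at 1.09. Fgf5 had signals of 2.77 and 1.56 in GC-2, against 25737 and 15248 in GC-1. The profiles share 4 arrays and 1 line difference, and for Upk3b the GC-2 values are below background, so the order of these genes is a description.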

How the data were processed

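RNA of the lines was read on 1-colour Agilent arrays. Per the file headers, Agilent Feature Extraction 11.5.1.1 made the deposited processed intensity, which is corrected for background and spatial trend and not normalized between arrays. Spots marked as irregular in the deposited files (92 to 224 per array) were left out, and none was saturated. The authors also deposited log2 values, 1 per gene. For the 4 uroplakins with 1 probe these equalled the log2 intensity minus 1 constant per array, within 0.00474 log2, so genes were not centred. The column medians of the authors' log2 values were -3.64 and -3.53 for GC-2, and -3.78 and -3.67 for GC-1.

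Spots of a probe were averaged as log2 intensity and the 75th percentile of each array was subtracted. Probes detected on both arrays of a line and valued on all 4 were tested with limma 3.58.1 in R 4.3.3 (GC-2 minus GC-1, two-sided, Benjamini-Hochberg, threshold 0.05), and the brightest tested probe stood for a gene. RefSeq's GRCm38 table named 32994 probes through an accession, 10224 through a symbol and 520 through a synonym, while 12867 kept the scanner files' name. The fit was also run on simulated arrays with independent noise, which do not address the scaling, the slide row or technical replicates. Arrays left out in turn leave a line with 1 array, which was then assumed to vary like the other line. The number of arrays limits the precision.

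The members, lists, motifs and naming rule were chosen with earlier results of these data known. Named were, from each list, the genes of largest difference past the threshold (at most 4), all neighbours past it, and the 5 genes nearest in profile to Upk1b and to Upk3b. Alternatives were normexp (offset 50), median, quantile and spike-in scaling, 2 other filters, the mean of a gene's probes, the authors' table, leaving out arrays and a replicate block.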

Additional observations from a re-analysis of the deposited data

How the results depend on the processing

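With normexp the differences of Upk1b, Upk3b and Upk1a were -8.56, -6.96 and -2.05 log2, and under spike-in scaling -13.20, -13.60 and -5.02 log2. Upk3b stood at -11.84 log2 with median scaling. These Upk3b values are fitted to GC-2 signals below background, and its limit was 1195-fold with median scaling and 4025-fold under spike-in scaling. Leaving out 1 array gave -11.50 to -10.77 log2 for Upk1b and -3.20 to -2.71 for Upk1a.

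Counts below give genes higher, then lower, in GC-2. Spike-in scaling gave 644 and 15156 for all genes, 0 and 6 for regulators, 0 higher keratins, 0 higher trafficking genes, 0 higher mesothelial genes, 3 and 21 for tetraspanins and 0 and 20 for neighbours. The authors' table gave 2084 and 2462 for all genes, 1 higher regulator, 0 higher keratins, 0 and 1 for trafficking genes and 4 lower neighbours. Normexp gave 1 lower regulator and 4 lower keratins, beside 3457 lower of 17437 genes. Detection on all 4 arrays, which tests fewer genes, gave 1 lower regulator and 3 lower keratins, beside 3846 of 15015. For trafficking genes, median scaling gave 0 higher, quantile normalization 1 and 3, no filter 1 and 1, and the mean of a gene's probes 2 lower. For all genes, median scaling gave 2273 higher, quantile normalization 3269 and 4314, no filter 2793 and 3268, and the probe mean 3890 lower. Leaving out 1 array gave 1941 to 2544 and 2704 to 3432 for all genes, 1 to 2 and 2 to 3 for regulators, 0 to 2 and 1 to 2 for trafficking genes, 0 to 1 higher and 8 to 10 lower mesothelial genes, 5 to 6 and 5 to 7 for tetraspanins and 2 to 4 and 5 to 7 for neighbours.

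Of 45 other genes (listed genes and neighbours named as past the threshold, and the genes nearest in profile), 20 lost their call or changed sign in at least 1 alternative. Under spike-in scaling the differences were -0.67 log2 for Sytl2, -1.005 for Vamp8, -0.57 for Cox6b1, -0.78 for Ddx6, -0.72 for Ssc4d, -1.12 for Polr2j, -0.15 for Aldh1a2, -1.12 for Rxra, -0.82 for Rarg and -0.85 for Krt13. With normexp Zp3 was at 0.35 and Krt20 at 0.53, and in the authors' table Sytl2 was at -0.75 and Fam118a at 0.43. The median of all genes was -0.13 log2, and 0.15 with normexp, -0.44 with median scaling and -2.19 under spike-in scaling. Apart from the smaller numbers of genes or arrays, the cause was not tested.

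The labels share replicate numbers 1 and 2 between the lines. Deviations of same-numbered arrays correlated at r = 0.146 across 30314 probes, and with 2 pairs the numbers are not shown to pair the arrays. With a replicate block Upk1b stood at -11.13 ± 0.29 log2 (SE), and 3255 genes were higher and 4542 lower. Signals near background limit what the GC-2 arrays can show for Upk3b and Upk1b.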

Other observations

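The authors' log2 table holds 1 value for Upk1b although 2 probes read it. On the GC-1 arrays that value equalled the mean of both probes within 0.000987 log2. On the GC-2 arrays it equalled the brighter probe, the one well above background there, within 0.0027 log2, and lay at least 0.793 log2 from the mean of both. For Upk3bl, whose probes were both well above background, it equalled the mean on all 4 arrays within 0.00282 log2. The line difference of Upk1b in the authors' table was -10.85 log2, against -11.13 log2 for its brighter probe.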
